A study of Mus musculus with 6 samples.

Results

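The aldehyde-clearing isoforms of the aldehyde dehydrogenase family were followed in marrow cells of C57BL/6 mice that had been sorted for high activity of these enzymes, a fraction called ALDHbr. The set was given as 10 gene symbols of the 1, 2, 3, 9 and 16 classes, chosen by name for enzymes that can oxidise retinal, lipid or small aldehydes. It held 9 of the 21606 genes of the count table, namely Aldh1a1, Aldh1a2, Aldh1a7, Aldh1b1, Aldh2, Aldh3a2, Aldh3b1, Aldh9a1 and Aldh16a1. Aldh1a3 was not analysed here. The groups were wild-type male mice (3 libraries) and wild-type female mice (3 libraries), with no age or treatment in the labels. RNA was measured in bulk by BRB-seq, where an oligo-dT primer gives every sample a barcode and reads lie mainly near transcripts' 3′ ends. Nothing in the labels ties replicates to different mice, so each p-value below reflects the spread of these samples alone, and that spread may be technical. All 6 libraries came from the sorted fraction, so no level is set against unsorted marrow or against cells of low activity.

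Aldehyde dehydrogenases use NAD or NADP to oxidise reactive aldehydes to acids. In blood-forming cells they remove aldehydes that would otherwise damage DNA and proteins, and some of them also make retinoic acid, a signal that drives differentiation. Sorts for this activity use a fluorescent aldehyde whose acid product stays in the cell. Several isoforms can oxidise such substrates, which is why the share of each isoform's RNA is of interest. RNA counts do not measure enzyme activity.

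Total counts were 679724 to 880074 in the male libraries and 1199551 to 1475224 in the female ones. The 8 markers of immature myeloid cells summed to 13171 to 14191 normalised CPM (counts per 1e+06 counts at library sizes scaled by TMM) in males and 14710 to 15426 in females. The progenitor marker Cd34 was counted in every library, with 825 counts in males and 1343 in females. In the barcode list, the 6 marrow samples share 1 pool of 16 with 10 lung samples, which were not analysed here. Over log2 CPM of the tested genes, the mean correlation of male replicate 1 was 0.956 with the other male libraries and 0.965 with the female ones. Transcripts of lung epithelium were counted in all 6 libraries, and their values stand beside Aldh1a1.

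Aldh1a1 and Aldh1a7 are neighbours on chromosome 19 and the most alike pair of the set. Their coding sequences were 91.7% identical, against 70.2% for the next pair, Aldh2 and Aldh1b1. Promoter windows are shown for this pair, as the most alike of the set, and for Aldh9a1 as an isoform with many counts. Each runs from 250 bases before to 50 after a transcription start of RefSeq (GRCm38.p6), 5′ to 3′ on the strand of the gene. Capitals mark the TATA box letters TATAAA, the GC box letters GGGCGG and the CCAAT box, each searched on both strands. Aldh1a1 has a pair of windows in this table, and the one at its downstream start is printed.
Aldh1a1 (chr19:20601718-20602017, plus strand): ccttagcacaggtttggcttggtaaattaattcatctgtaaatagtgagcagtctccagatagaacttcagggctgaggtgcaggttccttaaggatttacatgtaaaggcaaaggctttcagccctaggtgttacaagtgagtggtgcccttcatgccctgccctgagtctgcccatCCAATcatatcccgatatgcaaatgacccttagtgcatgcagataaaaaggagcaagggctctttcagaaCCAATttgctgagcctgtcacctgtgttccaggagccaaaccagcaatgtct
Aldh1a7 (chr19:20727507-20727806, minus strand): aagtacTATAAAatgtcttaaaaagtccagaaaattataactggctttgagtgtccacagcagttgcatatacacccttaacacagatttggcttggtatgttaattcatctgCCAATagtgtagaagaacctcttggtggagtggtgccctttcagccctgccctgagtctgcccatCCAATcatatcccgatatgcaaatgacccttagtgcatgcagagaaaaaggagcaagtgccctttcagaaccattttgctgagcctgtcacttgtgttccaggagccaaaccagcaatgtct
Aldh9a1 (chr1:167349741-167350040, plus strand): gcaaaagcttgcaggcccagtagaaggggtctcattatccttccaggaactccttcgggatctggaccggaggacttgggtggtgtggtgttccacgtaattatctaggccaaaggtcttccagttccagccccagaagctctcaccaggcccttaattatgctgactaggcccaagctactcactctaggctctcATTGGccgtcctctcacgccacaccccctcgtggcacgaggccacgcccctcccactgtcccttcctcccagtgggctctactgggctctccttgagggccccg

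The last 150 bases of the Aldh1a1 and Aldh1a7 windows were identical at 142 positions without gaps, whereas the window at the upstream start of Aldh1a1 (chr19:20492333-20492632) matched that of Aldh1a7 at only 44. Both printed windows hold CCAAT 2 times, a motif found in 37.4% of all 32851 windows. Aldh1a7 also holds TATAAA far upstream, a motif of 13.6% of windows. The Aldh9a1 window holds CCAAT once. Windows were matched for 8 isoforms and not for Aldh2, so its promoter was not searched. GGGCGG, found in 35.7% of all windows, stood in those of Aldh16a1 (4 times), Aldh3b1 (2), Aldh1b1 (1) and Aldh3a2 (1). CpG dinucleotides numbered 1 in the printed windows of Aldh1a1 and of Aldh1a7 and 9 in that of Aldh9a1, against a median of 7 over all windows, with 50 for Aldh1a2 and 22 for Aldh16a1. A match is a description of these letters and not a site of binding.

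At the transcripts' 3′ ends, where the reads come from, the pair is less alike. Over the last 500 bases of the main transcripts Aldh1a1 and Aldh1a7 were 77.5% identical. For each of the 9 isoforms, 0 of the 420 possible 81-base reads in that stretch also occurred in an annotated transcript of another gene. The 81 bases are the insert length given in the labels. Exons of Aldh16a1 share 149 bases with Pih1d1 on the opposite strand, and those of Aldh2 share 130 with Gm42879, a locus with 4 counts in all. No source used here says whether counting was stranded, so reads of Aldh16a1 and Pih1d1 in that overlap cannot be told apart.

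Aldh2 was the most abundant isoform in every library. It encodes a mitochondrial enzyme that clears acetaldehyde and the lipid peroxidation product 4-hydroxynonenal (chromosome 5, 121566027 to 121593824, GRCm38). Its counts were 348, 284 and 400 in male replicates 1 to 3 and 536, 622 and 474 in female replicates 1 to 3. In normalised CPM this was 405, 472 and 482 in males and 432, 421 and 365 in females. The groups overlapped, with male replicate 1 below female replicates 1 and 2. Its mean level was 453 ± 41.8 CPM in males and 406 ± 35.98 CPM in females (SD, n = 3 each), and over the 6 libraries it lay at or above 96.4% of the 8460 genes with enough counts to be tested.

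Of the summed counts of the isoforms, Aldh2 took 54.0%, 60.0% and 59.2% in male replicates 1 to 3 and 54.9%, 57.1% and 52.3% in female replicates 1 to 3. The exact 95% binomial intervals of these shares were highest in male replicate 2, at 55.5% to 64.5%, and lowest in female replicate 3, at 48.95% to 55.6%, and such intervals cover counting error only. In each library more counts came from Aldh2 than from the other 8 isoforms together, although the interval of female replicate 3 includes an even split. The mean share was 57.7% ± 3.24 in males and 54.7% ± 2.43 in females (SD, n = 3 each), a difference of 3.004 percentage points (two-sided exact permutation test, p = 0.3). With 3 libraries against 3, the smallest p this test allows is 0.1.

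Length changes the size of this share but not its rank. Per kilobase of annotated exon, Aldh2 held 48.4% ± 2.84 of the summed counts per kilobase in males and 44.9% ± 2.46 in females (SD, n = 3 each). Reads of a 3′ method depend little on transcript length, so both scales are given. Against all 17 aldehyde dehydrogenase genes of the table, of whose 5472 counts the set held 87.1%, Aldh2 took 50.7% ± 3.68 of the counts in males and 47.5% ± 2.45 in females.

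**Figure D1:**
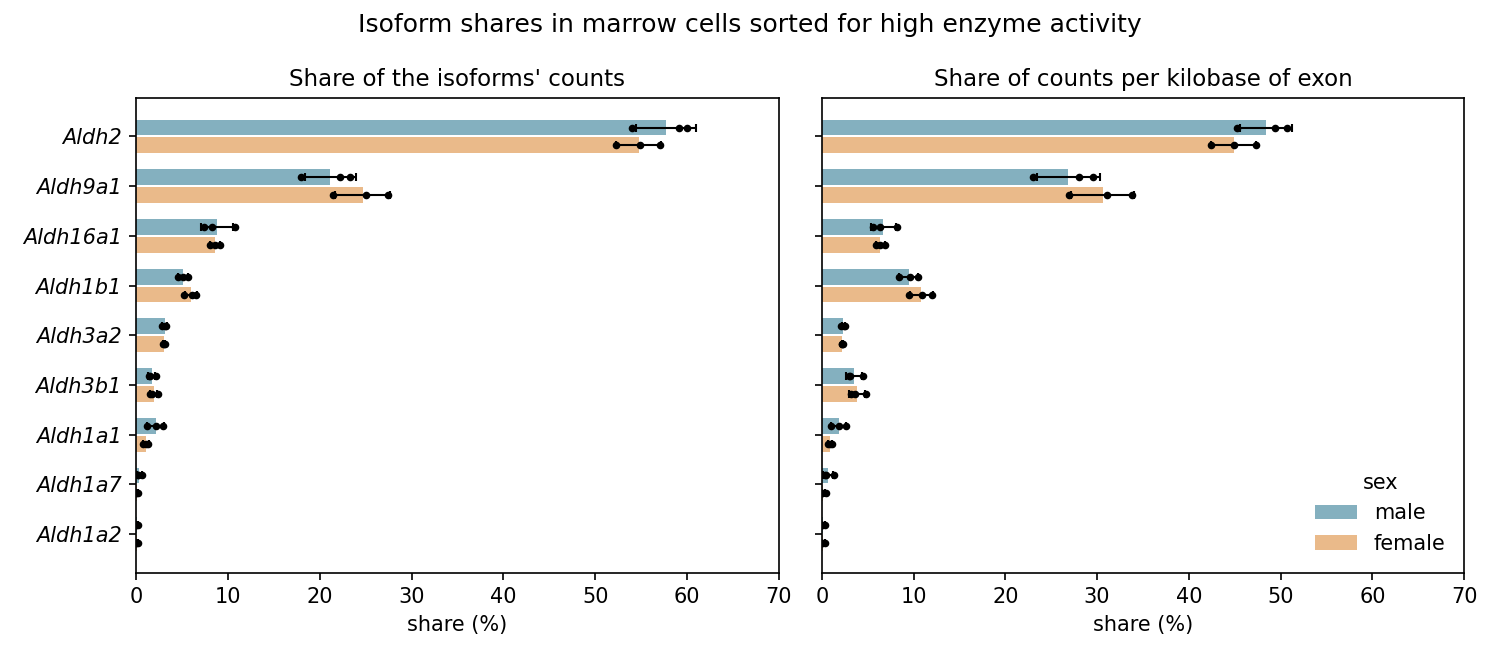
Share of each isoform in the summed counts of the 9 isoforms (left, %) and in the summed counts per kilobase of exon (right, %), in male and female libraries. Bars are means, lines the SD over 3 libraries and points single libraries; Aldh2 leads in both panels, with 57.7% of counts in males and 54.7% in females, while Aldh1b1 and Aldh16a1 change places per kilobase.

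Aldh1b1, the other mitochondrial enzyme of the set, which is known to act on acetaldehyde and retinal (chromosome 4, 45799022 to 45804604), had 29, 24 and 38 counts in male replicates 1 to 3 and 51, 71 and 55 in female replicates 1 to 3. Its level was 39.8 ± 6.01 CPM in males and 43.8 ± 3.74 CPM in females (SD, n = 3 each), and the groups overlapped. Together the mitochondrial pair took 62.8% ± 3.71 of the isoforms' counts in males and 60.7% ± 2.71 in females.

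Aldh9a1 was the isoform with the second most counts. It encodes a cytosolic enzyme that oxidises amino aldehydes, among them the precursor of carnitine (chromosome 1, 167349991 to 167368532). It had 150, 85 and 150 counts in male replicates 1 to 3 and 245, 234 and 249 in female replicates 1 to 3. Its level was 175, 141 and 181 CPM in males and 197, 159 and 192 CPM in females. The lowest value was in male replicate 2 and the groups overlapped. Its share of the isoforms' counts was 21.2% ± 2.81 in males and 24.7% ± 3.003 in females (SD, n = 3 each; exact permutation test, p = 0.3). Aldh2 and Aldh9a1 together held between 77.3% and 81.4% of the isoforms' counts in the 6 libraries.

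Aldh16a1 encodes a large member whose mammalian form lacks the catalytic cysteine and is therefore thought to be inactive (chromosome 7, 45140684 to 45154584). It had 69, 39 and 50 counts in male replicates 1 to 3 and 78, 99 and 78 in female replicates 1 to 3, which was 68.5 ± 10.5 CPM in males and 63.3 ± 3.54 CPM in females (SD, n = 3 each). Its share of the isoforms' counts was 8.79% ± 1.72 in males and 8.56% ± 0.555 in females. An isoform thought to be inactive thus held more counts than the Aldh1a isoforms together in each library.

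The class 3 isoforms oxidise fatty and lipid aldehydes. Aldh3a2, the fatty aldehyde dehydrogenase of the endoplasmic reticulum whose loss causes Sjögren-Larsson syndrome in humans (chromosome 11, 61223417 to 61267464), had 24.5, 24.9 and 22.9 CPM in male replicates 1 to 3 and 23.4, 21.7 and 21.5 CPM in female replicates 1 to 3. These values rest on 15 to 32 counts per library, and the groups overlapped. Aldh3b1, a membrane-bound enzyme for medium and long-chain aldehydes (chromosome 19, 3913491 to 3929808), had 9, 10 and 10 counts in males and 23, 19 and 14 in females. Its level was 13.1 ± 3.19 CPM in males and 14.1 ± 4.01 CPM in females (SD, n = 3 each). Together the class 3 pair took 4.74% ± 0.503 of the isoforms' counts in males and 4.88% ± 0.385 in females.

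The Aldh1a isoforms held few counts. Aldh1a1, the cytosolic retinal dehydrogenase commonly named in connection with such sorts (chromosome 19, 20492715 to 20643465), had 14, 14 and 8 counts in male replicates 1 to 3 and 13, 12 and 7 in female replicates 1 to 3. Its share of the isoforms' counts was 2.17%, 2.96% and 1.18% in the male replicates and 1.33%, 1.10% and 0.772% in the female ones. The widest exact 95% interval, that of male replicate 2, reached 4.92%. In each library Aldh1a1 had fewer counts than Aldh2, Aldh9a1, Aldh16a1, Aldh1b1 and Aldh3a2.

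Aldh1a7, the rodent neighbour of Aldh1a1 (chromosome 19, 20692953 to 20727562), had 4, 1 and 1 counts in males and 0, 0 and 2 in females. The male to female ratio of its summed counts per TMM-scaled library size was 5.26, with an exact 95% counting interval of 0.941 to 53.3. Aldh1a2, the main retinal dehydrogenase of the embryo (chromosome 9, 71215789 to 71296243), had 1 count in males, in replicate 2, and 2 in females, both in replicate 1. A count of 0 in a library allows up to 3 counts, which is a share of up to 0.466% of the isoforms' counts for Aldh1a2 in male replicate 1 and up to 0.275% in female replicate 2. Neither gene had enough counts to be tested. The 3 Aldh1a genes together took 2.503% ± 1.06 of the isoforms' counts in males and 1.21% ± 0.287 in females (SD, n = 3 each, exact permutation test, p = 0.2). Aldh1b1, named above as acting on retinal, is not in this sum.

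**Figure D2:**
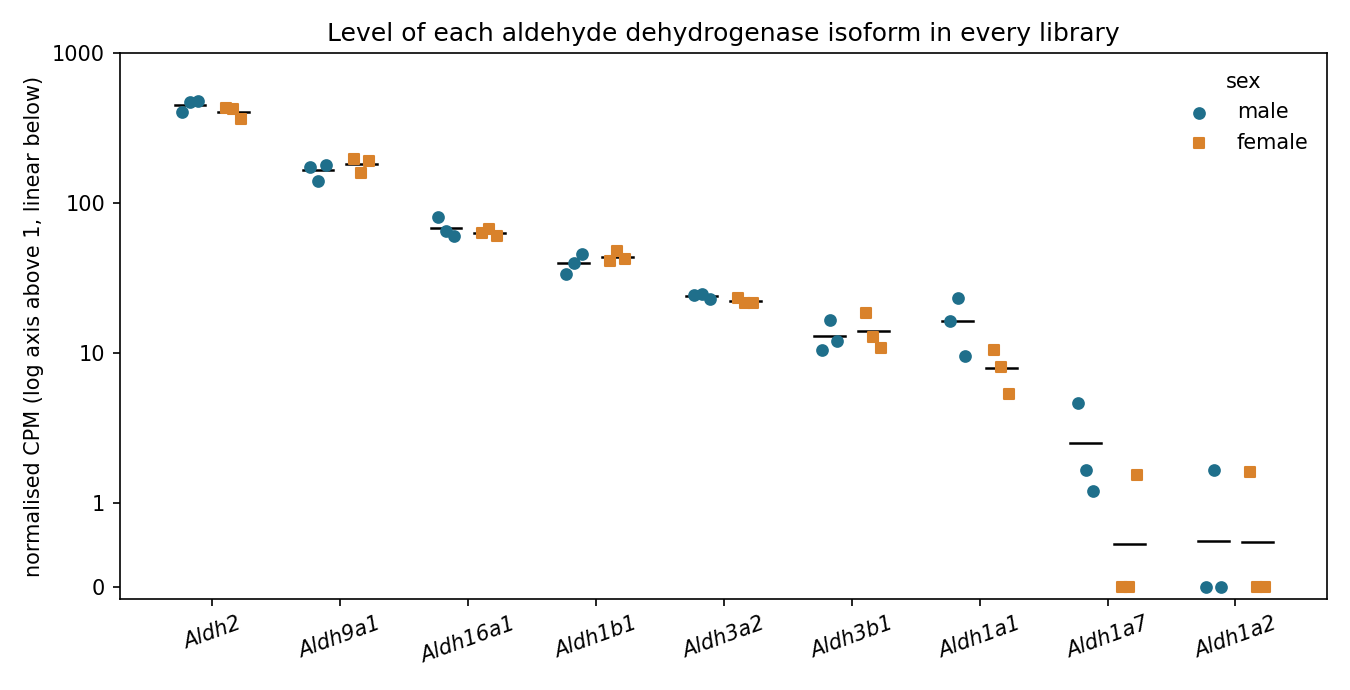
Normalised CPM of each isoform (log axis above 1, linear below) in the 3 male libraries (circles) and 3 female libraries (squares), with a line at each mean. The isoforms run from Aldh2, at 365 to 482 CPM, down to Aldh1a2, which was at 0 in 4 of 6 libraries, and male and female points overlap in each isoform.

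The order of the isoforms was stable across libraries except at its lower end. Per kilobase of exon the mean levels over 6 libraries were 83.8 CPM per kilobase for Aldh2, 51.4 for Aldh9a1, 18.2 for Aldh1b1, 11.7 for Aldh16a1, 6.63 for Aldh3b1, 4.12 for Aldh3a2, 2.47 for Aldh1a1, 0.731 for Aldh1a7 and 0.241 for Aldh1a2. On this scale each isoform was above the next in all 6 libraries, apart from Aldh3a2 above Aldh1a1 (5 of 6) and Aldh1a7 above Aldh1a2 (4 of 6), which did not differ beyond their spread. In CPM without division by length, Aldh16a1 stood above Aldh1b1 and Aldh3a2 above Aldh3b1 in all 6 libraries, so these neighbours changed places. In CPM, Aldh3b1 and Aldh1a1 did not differ beyond their spread, with Aldh3b1 higher in 4 of 6 libraries. Aldh2 was 1.90 to 3.34 times as high in CPM as Aldh9a1 within a library.

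Male and female libraries were compared to ask whether any isoform differs by sex. Of the 7 tested isoforms, 0 passed edgeR's quasi-likelihood test at a Benjamini-Hochberg adjusted p of 0.05, against 0.579% of the 8460 genes tested (0.426% higher and 0.154% lower in males). Without male replicate 1, edgeR called 415 genes in place of 49, and 0 of the isoforms. In 0 of the 7 did the male and female libraries separate without overlap, against 7.57% of tested genes with all male libraries above the female ones and 8.03% with all below. At an unadjusted 0.05, edgeR called 959 genes (11.3%), DESeq2 499 and limma-voom 933, and each called 1 of the 7 isoforms, Aldh1a1. By adjusted p, limma-voom called 0 of the isoforms, and so did DESeq2 without its independent filtering, an alternative chosen after seeing the data. With that filtering DESeq2 gave an adjusted p to 587 genes only, among them 1 isoform, Aldh2. The median log2 fold change of the tested isoforms was 0.12, against -0.0030 over all tested genes, with 4 above 0 and 3 below. In bulk RNA, fewer cells of a type and less RNA per cell cannot be told apart.

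Intervals show how large a sex difference the data allow. Aldh2 had a log2 fold change, male minus female, of 0.16 ± 0.12 (SE; 95% interval -0.098 to 0.41; edgeR adjusted p = 0.693), and Aldh9a1 one of -0.13 ± 0.13 (-0.39 to 0.14; adjusted p = 0.788). The intervals were -0.21 to 0.45 for Aldh16a1, -0.55 to 0.26 for Aldh1b1 and -0.38 to 0.62 for Aldh3a2. For Aldh3b1, which had few counts, the interval was wider, from -0.83 to 0.56. Each of these 6 intervals includes 0 and lies within 1 log2 unit of it.

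Aldh1a1 had the smallest unadjusted p of the set. Its level was 16.3, 23.3 and 9.64 CPM in male replicates 1 to 3 and 10.5, 8.13 and 5.39 CPM in female replicates 1 to 3. Male replicate 3 lay below female replicate 1, so the groups overlapped. Its log2 fold change was 0.97 ± 0.38 (SE; 95% interval 0.19 to 1.76) and did not pass (edgeR adjusted p = 0.302; unadjusted p = 0.0167). It rests on 36 counts in males and 32 in females. Without male replicate 2, the library with the highest value, the log2 fold change was 0.70 (edgeR adjusted p = 0.728), and over the alternatives that gave it an adjusted p this lay between 0.239 and 0.744.

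**Figure D3:**
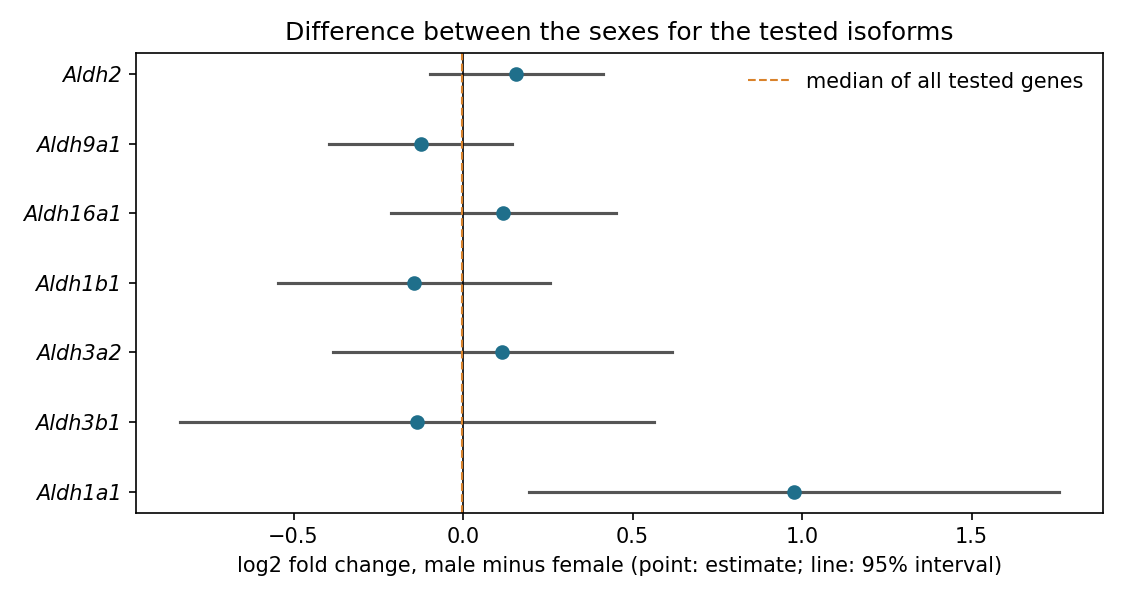
Log2 fold change, male minus female, of the 7 tested isoforms with 95% intervals from edgeR's quasi-likelihood fit; the dashed line is the median of all tested genes. The intervals of 6 isoforms include 0, and that of Aldh1a1 runs from 0.19 to 1.76.

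The genes whose levels followed Aldh1a1 most closely over the 6 libraries were Hdac6, Sftpc and Sftpd, with root mean square distances of 0.17, 0.20 and 0.21 on the log2 CPM scale, each gene centred on its own mean. The median distance of all tested genes was 0.62. Sftpc and Sftpd encode surfactant proteins of the lung epithelium. Sftpc had 102, 221 and 96.4 CPM in male replicates 1 to 3 and 88.6, 73.2 and 52.3 CPM in female replicates 1 to 3, a log2 fold change of 0.92 ± 0.23 that did not pass (edgeR adjusted p = 0.0724). As for Aldh1a1, the highest library was male replicate 2 and the lowest female replicate 3.

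Per 100 counts of Sftpc there were 15.9, 10.5 and 10.0 counts of Aldh1a1 in male replicates 1 to 3 and 11.8, 11.1 and 10.3 in female replicates 1 to 3. The highest of these ratios was 1.59 times the lowest. The same span was 1.27 for Sftpd, 1.93 for Scgb1a1 and 1.96 for Sftpb, all lung genes. For the other tested isoforms it ran from 2.78 for Aldh3b1 to 5.73 for Aldh9a1. Napsa, another lung marker, had a wider span than these 3 lung genes, within the range of the other isoforms. The remaining lung markers were not compared in this way. Sftpc and Sftpd were picked as near to Aldh1a1 among all tested genes, so these ratios are a description and no independent support. Of the 12 lung epithelial markers, all 12 had counts and 11 were counted in every library. Their summed level was 580 to 916 CPM in males and 496 to 606 CPM in females. Without Napsa, which made up much of the sum, it was 258 to 552 CPM in males and 170 to 234 CPM in females. The sexes thus overlapped with all 12 markers, and the male libraries all lay above the female ones only without Napsa. Napsa itself overlapped between the sexes and was highest in female replicate 2. Of the 7 tested markers, 0 passed by edgeR, limma-voom or DESeq2 without independent filtering, and 4 had an unadjusted p under 0.05 by edgeR (3 by each of the others). Over all 8460 tested genes that unadjusted threshold was met by 959 (11.3%) in edgeR, 499 in DESeq2 and 933 in limma-voom. The part of lung RNA in the counts of Aldh1a1 was not tested.

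**Figure D4:**
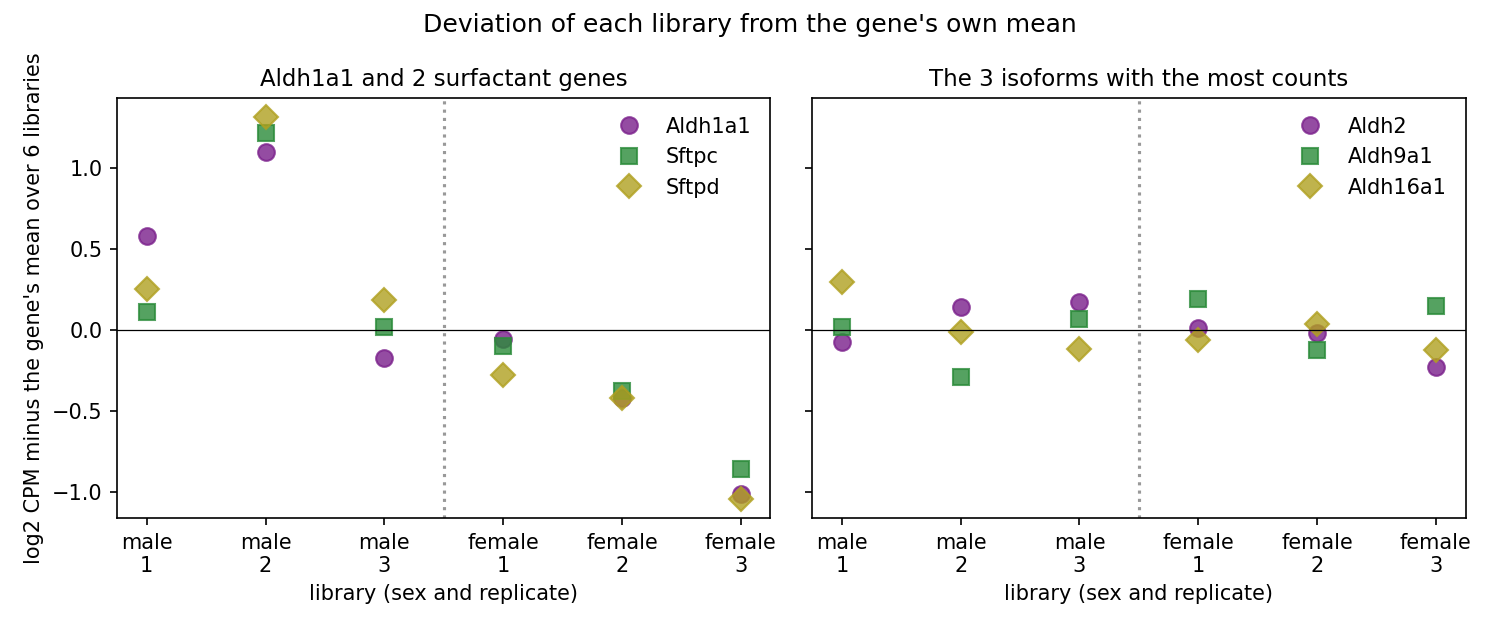
Log2 CPM of each gene minus its mean over the 6 libraries, by library, for Aldh1a1 with Sftpc and Sftpd (left) and for Aldh2, Aldh9a1 and Aldh16a1 (right). In the left panel the 3 genes are highest in male replicate 2 and lowest in female replicate 3, while the 3 isoforms on the right stay closer to 0. Hdac6, the gene nearest to Aldh1a1, is not drawn. Aldh1a1 had 7 to 14 counts per library and the isoforms on the right 39 to 622, so counting error is larger for Aldh1a1.

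Single markers of other cell types passed the test between the sexes, and no list was tested as a whole. The summed level of 8 erythroid markers was 214 to 348 CPM in males and 88.7 to 109 CPM in females, and both tested members, Car1 and Car2, were higher in males. For the 8 megakaryocyte markers it was 48.9 to 123 CPM in males and 33.1 to 36.2 CPM in females (the 1 tested, Pf4, was higher in males), and for 6 mast cell and basophil markers 148 to 208 CPM in males and 91.8 to 114 CPM in females (1 of 4, Cpa3, was higher in males). The 9 B cell markers summed to 64.9 to 75.9 CPM in males and 94.2 to 100.1 CPM in females, where 1 of 2 tested, Ms4a1, was lower in males by edgeR's adjusted p but did not pass by limma-voom or by DESeq2 without independent filtering. By both of those tools the 2 erythroid markers, the megakaryocyte marker and 1 of the 4 mast cell and basophil markers passed. These genes are named because they passed, and by edgeR 0.579% of all 8460 tested genes did so. The 12 stem and multipotent progenitor markers summed to 596 to 644 CPM in males and 548 to 615 CPM in females, and 0 of 6 tested passed. Their part in the level of Aldh1a1 was not tested. The genes nearest to Aldh2 were Taldo1, Anxa1 and Tma7, at distances of 0.036, 0.042 and 0.043 where the median of all tested genes was 0.25.

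As a whole, the isoforms summed to 750, 787 and 815 CPM in male replicates 1 to 3 and 787, 738 and 698 CPM in female replicates 1 to 3. The groups overlapped and the mean difference was 42.9 CPM (exact permutation test, p = 0.3). Scaled by library size only it was -9.11 CPM. The 9 genes held between 0.0696% and 0.0814% of all counts of a library.

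Of the 8 remaining aldehyde dehydrogenase genes, which mostly serve amino acid and folate metabolism, 0 of 4 tested passed. Aldh18a1, of proline synthesis, had 56.8 ± 12.02 CPM in males and 52.5 ± 3.82 CPM in females (SD, n = 3 each), and Aldh4a1, of proline breakdown, had 23.4 ± 8.91 CPM in males and 32.4 ± 5.20 CPM in females. Their log2 fold changes were 0.10 and -0.40.

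Enzymes that remove aldehydes by other routes were counted too. Akr1a1, an aldehyde reductase, had 622 ± 71.3 CPM in males and 573 ± 54.5 CPM in females, and Adh5, which clears formaldehyde bound to glutathione, had 220 ± 52.0 CPM in males and 165 ± 7.47 CPM in females (SD, n = 3 each). None of the 11 tested reductases and alcohol dehydrogenases passed. Of their 11 fold changes 10 lay above 0, with a median of 0.28 on the log2 scale. Over all tested genes, 50.7% of fold changes lay below 0 and the median was -0.0030. Of the 6 tested genes of aldehyde oxidation and glutathione conjugation, 0 passed. Gstm1, a glutathione transferase, had a log2 fold change of 0.09, and Glo1, the glyoxalase that clears methylglyoxal, one of 0.27.

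Genes on either side of the isoforms' reactions did not pass either. Among 10 tested sources of lipid and amine aldehydes, Srm, which makes spermidine, and Alox5ap, the partner of 5-lipoxygenase, had log2 fold changes of -0.02 and -0.10. Among 7 tested genes of retinal and retinoic acid handling, Dhrs3, which reduces retinal back to retinol, had 87.7 ± 3.25 CPM in males and 82.998 ± 6.75 CPM in females (SD, n = 3 each), while Fabp5, which carries retinoic acid, had a log2 fold change of -0.13. Of 5 tested efflux pumps of the kind that can export the product of the sort dye, Abcc1 and Abcc4 had log2 fold changes of -0.20 and -0.51. Over these 6 lists 0 of 43 tested genes passed, with a median log2 fold change of 0.07. The smallest adjusted p by edgeR was 0.186, that of Gstm5. At an unadjusted 0.05 edgeR called 5 of the 43, and DESeq2 and limma-voom called 3 each. Over all 8460 tested genes edgeR called 959 (11.3%), DESeq2 499 and limma-voom 933 at that threshold.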

How the data were processed

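The authors deposited raw counts per gene of BRB-seq libraries: the values are whole numbers with no scaling, per the file headers. Tools in the submitters' processing notes, listed without roles, are Trim Galore 0.6.7, UMI-tools, HISAT2 2.2.1, DESeq2 and featureCounts 2.0.1, and builds are GRCm38 and GRCh38; no source used here says whether molecular identifiers were collapsed. All 21606 identifiers matched GENCODE M21 (GRCm38), which gave positions and exon lengths.

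The isoforms and gene lists were chosen with earlier results of these data known. Members were all named. From other pathway lists up to 3 genes past the threshold were named or, with none, the 2 with the highest level. Gstm5 was added for its adjusted p. Genes passing filterByExpr (minimum count 10, total 15; 8460 kept) were fitted with edgeR 4.0.16 in R 4.3.3 (TMM, quasi-likelihood test, no covariate, common biological coefficient of variation 0.102), and p-values were adjusted over all of them. The standard error of a fold change was its size over the square root of the F statistic. Alternatives were other scalings and filters, DESeq2 1.42.0 with and without independent filtering, limma-voom 3.58.1, the replicate number as a block and leaving out each library. The fit was tested on simulated data with 200 changed genes among 8460. It recovered 32.8% of those changed by 0.5 log2 units, 74.6% at 1 and 95.5% at 2. No rate was computed for single isoforms. Pairs of libraries of a sex differed by more than counting error (chi-square per degree of freedom 1.58 to 2.75). Shares were compared with exact permutation tests over 20 regroupings.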

Additional observations from a re-analysis of the deposited data

How the results depend on the processing

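No isoform passed under any of the 15 alternatives to the edgeR fit, but in 2 of them not every isoform had an adjusted p: the stricter filter (10 counts in every library of a sex) left Aldh1a1 out, and DESeq2's independent filtering gave 6 of the 7 none. The number of all genes called, 49 in the fit reported, was 116 with no filter, 18 by DESeq2 (587 genes with an adjusted p; 41 without independent filtering, an alternative chosen after seeing the data) and 78 with the replicate number as a block, and 23 (without male replicate 3) to 415 (without male replicate 1) when single libraries were left out; it was 32 without female replicate 2. Apart from the DESeq2 filter, the cause was not tested. Same-numbered libraries deviated together only weakly (correlations 0.030, 0.034 and 0.048), so the numbers were not taken as pairs, although every library correlated best with its own number.

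The log2 fold change of Aldh16a1 ran from -0.025 to 0.22 and that of Aldh3b1 from -0.31 to 0.10 when single libraries were left out, both changing sign; that of Aldh3b1 was 0.0060 without male replicate 1. Others kept their sign but changed in size: that of Aldh2 ran from 0.09 (without female replicate 3) to 0.23 (without male replicate 1), that of Aldh9a1 from -0.22 (without female replicate 2) to -0.03 (without male replicate 2) and that of Aldh1b1 from -0.27 (without male replicate 3) to -0.02 (without male replicate 1). The difference in summed level, 42.9 CPM, was -9.11 CPM with library sizes only, a scaling that shifted the median fold change by -0.089, and -4.36 CPM without Aldh2. It lay between 21.5 and 65.9 CPM with single libraries left out, and that of the Aldh2 share between 1.76 and 4.86 percentage points. Depth limits Aldh1a1, Aldh1a2 and Aldh1a7, with 68, 3 and 8 counts in all.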
